A study of Mus musculus with 96 samples.

Results

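Mixed leukaemias, made by transplanting LSK-derived and GMP-derived cells together, were compared between Ptprca and NSG recipient mice. All libraries labelled as carrying both origins were taken, which gave 30 of the 96 sample records of the series. These records are 2 PCR duplicates of each of 15 tissues, and the deposited tables hold 1 column for each tissue. The 15 tissues came from 8 mice, 4 of each host. Ptprca mice 17 to 20 and NSG mice 21 to 23 gave bone marrow and spleen, and NSG mouse 24 gave spleen alone. The mixed cell pool taken before transplantation was the reference, and it was a single sample.

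Both leukaemias started from bone marrow of female C57BL/6 donors aged 6 to 8 weeks. Cells were transduced with an MLL-AF9 retrovirus and with SPLINTR barcode libraries, and grew in culture with mouse IL-3, human IL-6 and mouse SCF. All 8 mice therefore received cells with the same oncogene and culture history, for which 1 mixed pool was deposited. Ptprca is a congenic strain with a working immune system. NSG mice lack mature T, B and NK cells. The age of the recipients and the time of harvest are not given in the sources used here.

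LSK cells (lineage-negative, Sca-1-positive, c-Kit-positive) are a marrow fraction that holds haematopoietic stem cells and early progenitors. GMP cells are committed progenitors of granulocytes and monocytes. MLL-AF9 joins a chromatin regulator to a partner that works in transcription elongation, and it can turn either population into a myeloid leukaemia. A heritable barcode lets the descendants of 1 transduced cell be followed as a clone, and the colour in its name gives its origin. GFP barcodes marked LSK-derived cells and mCHERRY barcodes marked GMP-derived cells. Cells with several barcodes, if any, would count as several clones.

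Each mouse library rested on 5239254 to 7814019 barcode reads and the pool on 4257581. A clone with 0 reads may hold up to 3 reads, which is 3.84e-05% to 5.73e-05% of a mouse library. These limits and the Wilson intervals hold for counting error alone, because amplified reads here carry no molecular identifier and need not stand for separate molecules. The spleen library of Ptprca mouse 18 stood apart, with 1.07% of reads in barcodes that the mixed pool did not hold, against at most 0.404% in the other 14. Host, deposited table and any difference in the preparation of the 2 cohorts cannot be told apart. Cell numbers were not measured, so a lower share of a clone and a higher share of its neighbours cannot be told apart either.

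The LSK library took a smaller share of reads in Ptprca than in NSG mice. In Ptprca bone marrow the LSK share was 37.4%, 39.5%, 35.7% and 32.4% in mice 17, 18, 19 and 20. In NSG bone marrow it was 43.9%, 61.9% and 65.6% in mice 21, 22 and 23. Every Ptprca marrow lay below every NSG marrow. All 4 lay below the pool at 50.6% (95% Wilson interval 50.56 to 50.66), and so did the marrow of NSG mouse 21. The bone marrow difference was -1.24 log2 odds (Ptprca minus NSG, 4 against 3 mice). Its exact two-sided permutation p was 0.0571, the smallest these numbers allow (adjusted 0.114 over 12 tests).

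In Ptprca spleen the LSK share was 46.0%, 42.5%, 38.0% and 50.1% in mice 17, 18, 19 and 20. In NSG spleen it was 58.2%, 49.3%, 79.6% and 55.0% in mice 21, 22, 23 and 24. All Ptprca spleens and the spleen of NSG mouse 22 lay below the pool. The spleens overlapped, since Ptprca mouse 20 lay above NSG mouse 22. The spleen difference of -1.02 log2 odds had an exact permutation p of 0.0571 (adjusted 0.137 over 12 tests). Averaged over the tissues of a mouse, the groups did not overlap, with Ptprca mice at 36.8% to 41.7% and NSG mice at 51.1% to 72.6%. That difference was -1.11 log2 odds (exact permutation p = 0.0286, the smallest that 4 against 4 allow, adjusted 0.0619 over 13 tests). The SD was 0.62 log2 odds in NSG mice against 0.13 in Ptprca mice. The NSG spread rested much on mouse 23 at 72.6%, with mice 21, 22 and 24 at 51.1%, 55.6% and 55.0%.

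**Figure D1:**
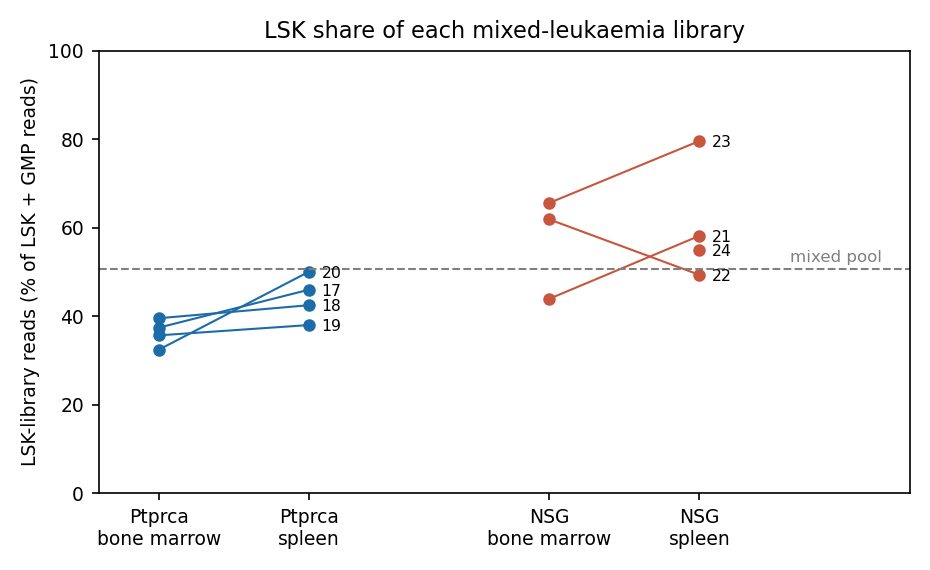
LSK-library reads as a percentage of LSK plus GMP reads in each of the 15 libraries, with lines joining the tissues of a mouse, mouse numbers beside the spleens and the mixed pool as a dashed line at 50.6%. All 4 Ptprca mice were higher in spleen than in bone marrow, while NSG mouse 22 went the other way.

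Whether the tissue gap in LSK share depended on the host could not be decided with these mice. All 4 Ptprca mice had a lower LSK share in bone marrow than in spleen, by -0.51, -0.18, -0.14 and -1.06 log2 odds in mice 17 to 20. In NSG mice 21, 22 and 23 the same gap was -0.83, 0.74 and -1.03 log2 odds, so 1 of 3 was higher in bone marrow. The mean gaps were -0.47 ± 0.43 (SD, n = 4) and -0.37 ± 0.97 (SD, n = 3) log2 odds. Their difference of -0.10 had an exact permutation p of 0.8. With 4 against 3 mice that p cannot go below 0.0571, so the test could not have reached the threshold of 0.05.

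The host difference in LSK share was no longer detectable once the 5 largest LSK clones were left out together. LSK clones were ranked by their mean share over both hosts and left out together, and the LSK share of the remaining reads was computed again. The ranking used these same mice. Without the largest clone, the LSK share was 25.5% ± 1.97 in Ptprca against 52.5% ± 12.2 in NSG mice (SD, n = 4 each), a wider gap of -1.74 log2 odds (exact permutation p = 0.0286). Without the largest 2 it was 21.6% ± 1.46 and 42.4% ± 13.99 (-1.43 log2 odds, n = 4 each, exact permutation p = 0.0286). Without the largest 3 it was 18.9% ± 1.34 and 29.1% ± 9.39, and the groups overlapped (-0.77 log2 odds, n = 4 each, exact permutation p = 0.0571).

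Without the largest 5 LSK clones, the remaining LSK share was 15.3%, 16.8%, 11.4% and 13.6% in Ptprca mice 17 to 20. It was 8.99%, 14.03%, 18.95% and 11.2% in NSG mice 21 to 24, a spread that took in all 4 Ptprca mice. The means were 14.3% ± 2.31 and 13.3% ± 4.3 (SD, n = 4 each), 0.19 log2 odds apart with Ptprca higher (exact permutation p = 0.543, adjusted 0.706). In bone marrow the remaining shares were 15.5% ± 3.52 (SD, n = 4) and 17.3% ± 10.1 (SD, n = 3). In spleen they were 15.7%, 12.9%, 9.58% and 13.8% in mice 17 to 20 and 9.79%, 12.7%, 9.69% and 11.2% in mice 21 to 24. These gaps of -0.04 and 0.28 log2 odds had exact permutation p-values of 0.971 and 0.229.

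The outcome depended on which clones were left out and how many. With the 5 largest LSK clones of the mice that received LSK cells alone, a ranking free of the mixed mice, the gap was -0.25 log2 odds (exact permutation p = 0.171). With the 5 largest of the mixed pool it stayed at -0.82 log2 odds (exact permutation p = 0.0286). Without the largest 10, the shares were 7.93% ± 2.23 and 9.79% ± 4.81 (SD, n = 4 each, exact permutation p = 0.486). Without the largest 20 the order turned, with 5.04% ± 1.13 of the remaining reads from LSK clones in Ptprca and 2.07% ± 0.70 in NSG mice (1.47 log2 odds, n = 4 each, exact permutation p = 0.0286). The groups did not overlap there, with a lowest Ptprca mouse at 3.81% and a highest NSG mouse at 3.04%. In the pool the same 20 clones mattered little, since the LSK share was 48.3% without them.

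**Figure D2:**
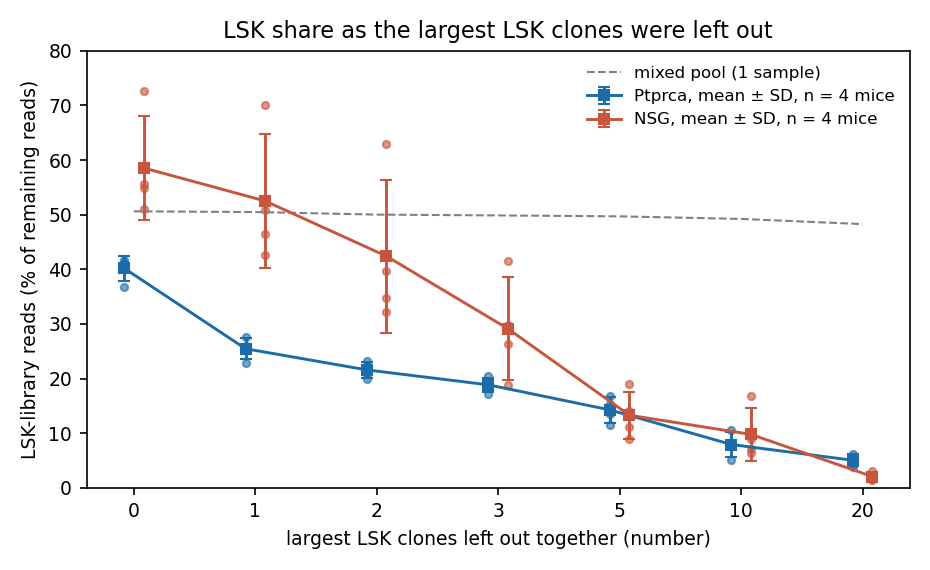
LSK share of the remaining reads after the largest 0 to 20 LSK clones were left out together, with 1 point for each mouse, squares and bars for mean ± SD (n = 4 mice a host) and the mixed pool dashed. The hosts lay apart up to 2 clones left out and overlapped at 3, 5 and 10, and Ptprca mice were the higher ones at 20.

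Over mouse means, leaving out the largest GMP clones did not narrow the gap. Without the 5 largest GMP clones the LSK share differed by -1.71 log2 odds (Ptprca minus NSG, 4 against 4 mice, exact permutation p = 0.0286, adjusted 0.0619). In bone marrow the gap narrowed to -0.98 log2 odds with overlapping groups (exact permutation p = 0.171), and in spleen it was -2.33 (exact permutation p = 0.0571). With the 5 largest clones of both libraries left out, the gap was -0.41 log2 odds with overlapping groups (exact permutation p = 0.8). NSG mouse 23 decided its sign, which was 0.19 log2 odds without that mouse.

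The LSK clones did not all move the same way. Of all reads, LSK clones held 18.4 percentage points fewer in Ptprca than in NSG mice (-18.4 points), of which the 5 largest made up -22.0 points and the other LSK clones 3.64 points in the opposite direction. The clone GFP_Barcode_29850 contributed -12.0 points, with 2.54% ± 1.05 of all reads in Ptprca and 14.6% ± 9.42 in NSG mice. Its NSG mean rested much on mouse 23, where it held 38.4% of LSK reads, against 17.7% to 19.9% in the other NSG mice. GFP_Barcode_7785 contributed -11.4 points (4.01% ± 0.68 against 15.4% ± 3.5) and GFP_Barcode_100907 -5.46 points (2.83% ± 0.63 against 8.3% ± 3.25). GFP_Barcode_1859 went the other way by 7.41 points, with 19.8% ± 1.75 of all reads in Ptprca against 12.4% ± 3.69 in NSG mice (SD, n = 4 each).

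Leaving out the 3 clones that were larger in NSG mice, a list chosen after their values were seen and given no test, brought the LSK shares to 34.1% ± 2.49 in Ptprca against 33.3% ± 3.67 in NSG mice (SD, n = 4 each). Together these 3 held 9.38% ± 1.90 of all reads in Ptprca and 38.2% ± 12.8 in NSG mice, against 1.48% of the pool. Each of the 4 leading LSK clones was thus a small part of the pool, and GFP_Barcode_1859 was 0.274% of it. Still, they were among its more abundant LSK clones. Of 1126, GFP_Barcode_7785 ranked 4, GFP_Barcode_29850 39, GFP_Barcode_1859 47 and GFP_Barcode_100907 48.

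The leading clone of the LSK library differed between hosts. GFP_Barcode_1859 was the largest LSK clone in 8 of 8 Ptprca libraries and in 1 of 7 NSG libraries. GFP_Barcode_7785 led in 4 NSG libraries and GFP_Barcode_29850 in the other 2. In Ptprca bone marrow GFP_Barcode_1859 held 47.6%, 33.7%, 36.2% and 39.2% of LSK reads in mice 17 to 20, and in NSG bone marrow 21.2%, 16.96% and 10.8% in mice 21 to 23. In Ptprca spleen it held 57.1%, 62.6%, 59.99% and 51.4%, and in NSG spleen 36.2%, 18.5%, 12.7% and 28.9% in mice 21 to 24. Neither tissue overlapped between hosts. Its share differed by 1.23 ± 0.27 (SE) on the log2 scale (limma adjusted p = 0.00333, but 0.0886 without the variance trend and 0.0536 with no minimum).

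GFP_Barcode_7785, which ranked 4 in the LSK library of the pool at 1.82%, was higher in NSG mice. Its mean share of LSK reads was 10.6%, 10.0%, 8.34% and 10.95% in Ptprca mice 17 to 20 and 20.5%, 29.9%, 23.9% and 32.1% in NSG mice 21 to 24. The groups did not overlap (-1.43 ± 0.23 (SE) log2, limma adjusted p = 0.000633). GFP_Barcode_29850 held 4.59%, 4.06%, 6.91% and 10.4% in Ptprca and 17.7%, 18.99%, 38.4% and 19.9% in NSG mice, again without overlap (-1.85 ± 0.38 (SE) log2, limma adjusted p = 0.00223). GFP_Barcode_100907 held 5.65%, 5.56%, 8.30% and 7.88% in Ptprca and 14.7%, 19.1%, 14.2% and 7.01% in NSG mice. Here NSG mouse 24 fell among the Ptprca mice (-0.96 ± 0.35 (SE) log2, limma adjusted p = 0.0361), and neither tissue alone passed the threshold (adjusted p = 0.0966 in bone marrow and 0.109 in spleen). The call of GFP_Barcode_100907 was also lost without mouse 17, 18, 20, 21, 22 or 23 (limma adjusted p between 0.0596 and 0.106).

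Among the smaller leaders, GFP_Barcode_2255 stood out in Ptprca spleen. It held 7.81%, 6.46%, 7.18% and 4.58% of LSK reads in the spleens of mice 17 to 20, and 1.03%, 0.321%, 0.318% and 0.646% in their bone marrow. In NSG mice it held at most 1.43% of any library. Over mouse means GFP_Barcode_2255 was higher in Ptprca mice (2.44 ± 0.84 (SE) log2, limma adjusted p = 0.0301), a call lost without mouse 17, 18, 19, 20 or 24 (adjusted p between 0.0526 and 0.1002). In spleen alone the clone was higher in Ptprca mice (4.33 log2, limma adjusted p = 0.00257), while in bone marrow no difference was detectable (0.36 log2, adjusted p = 0.791). GFP_Barcode_8037 varied within each host, from 0.518% to 11.2% in Ptprca and from 0.0155% to 11.7% in NSG libraries, and was not called (limma adjusted p = 0.451).

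**Figure D3:**
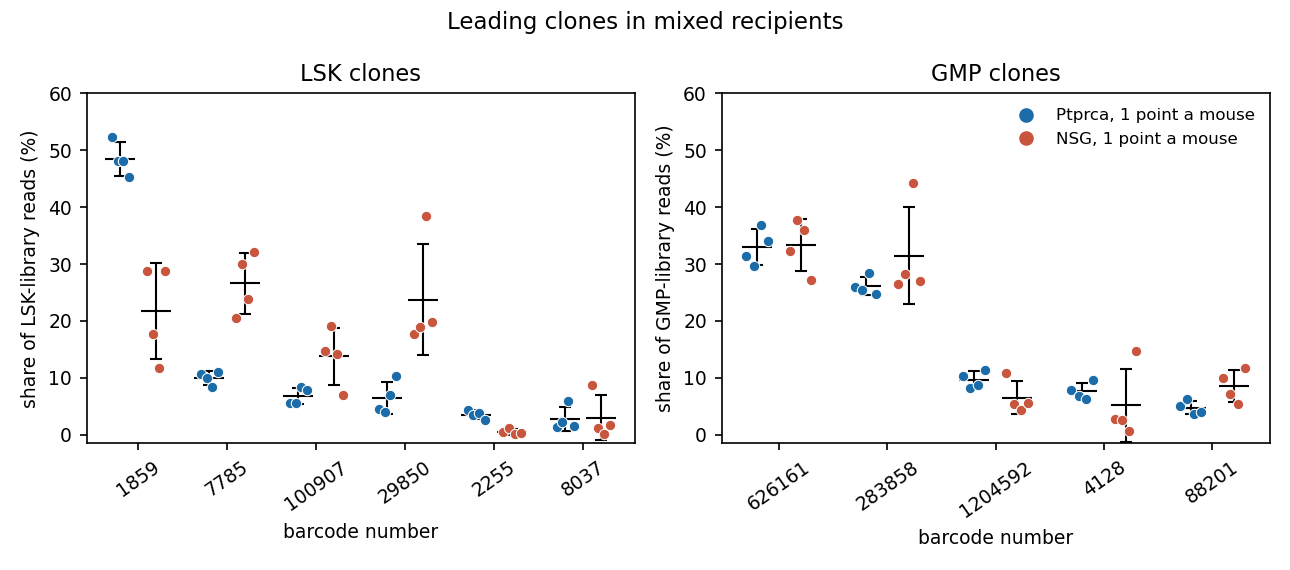
Share of library reads held by the 5 largest clones of each host, with 1 point for each mouse (tissues averaged) and bars for mean ± SD, LSK clones on the left and GMP clones on the right. GFP_Barcode_1859 was higher in every Ptprca mouse, and GFP_Barcode_7785 and GFP_Barcode_29850 were higher in every NSG mouse, while the GMP clones overlapped between hosts.

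The 5 leading GMP clones overlapped between hosts in their mouse means, and none of them was called there, though 2 were called in bone marrow alone. mCHERRY_2_Barcode_626161 held 31.5%, 29.7%, 36.9% and 34.1% of GMP reads in Ptprca mice 17 to 20 and 32.4%, 37.8%, 35.9% and 27.3% in NSG mice 21 to 24. The difference was 0.01 ± 0.15 (SE) log2 (limma adjusted p = 0.963). mCHERRY_2_Barcode_283858 held 26.1%, 25.5%, 28.4% and 24.7% in Ptprca and 26.5%, 28.2%, 44.2% and 27.0% in NSG mice (-0.26 ± 0.19 (SE) log2, limma adjusted p = 0.314). The NSG mean of that clone rested much on mouse 23, whose spleen held 54.3%. The former clone led 7 of 8 Ptprca libraries and 3 of 7 NSG libraries, and the latter led the rest. In the pool these 2 clones made up 3.42% of the GMP library.

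mCHERRY_2_Barcode_1204592 (9.68% ± 1.499 in Ptprca, 6.52% ± 2.90 in NSG mice), mCHERRY_2_Barcode_4128 (7.63% ± 1.49 and 5.19% ± 6.41) and mCHERRY_2_Barcode_88201 (4.74% ± 1.19 and 8.57% ± 2.75; SD, n = 4 each) were not called over mouse means (limma adjusted p = 0.233, 0.253 and 0.395). Leaving out 1 NSG mouse changed this for each, with mCHERRY_2_Barcode_1204592 at 0.0483 without mouse 21, mCHERRY_2_Barcode_4128 at 0.00808 without mouse 24 and mCHERRY_2_Barcode_88201 at 0.0158 without mouse 23 (limma adjusted p). No other mouse left out gave any of them a call. The highest limma adjusted p-values over mice left out were 0.400, 0.518 and 0.609, in the same order. mCHERRY_2_Barcode_4128 was the largest GMP clone of the pool at 3.31% of its library. It held 10.8%, 11.7%, 10.4% and 16.3% of GMP reads in Ptprca bone marrow (mice 17 to 20), above the 2.16%, 4.92% and 1.11% of NSG bone marrow (mice 21 to 23; 2.41 log2, limma adjusted p = 0.00612). In spleen it overlapped, at 5.05%, 1.79%, 2.05% and 2.96% in Ptprca and 3.49%, 0.274%, 0.214% and 14.7% in NSG mice 21 to 24. mCHERRY_2_Barcode_88201 was lower in Ptprca bone marrow, at 5.87%, 4.75%, 3.17% and 3.39% against 13.7%, 7.199% and 10.2% (-1.27 log2, limma adjusted p = 0.0398). Of all reads, mCHERRY_2_Barcode_626161 held 19.7% ± 2.56 in Ptprca against 13.4% ± 3.13 in NSG mice (SD, n = 4 each).

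More clones of each origin were detected in Ptprca mice. A clone counted as detected at or over 100 reads per 1000000 of its own library. In bone marrow, 97, 106, 97 and 112 LSK clones were detected in Ptprca mice 17 to 20, against 31, 30 and 20 in NSG mice 21 to 23. In spleen the counts were 58, 57, 64 and 60 against 32, 32, 21 and 29 in NSG mice 21 to 24. Neither tissue overlapped between hosts. Over the tissues of a mouse, Ptprca mice held 81.4 ± 3.52 and NSG mice 28.0 ± 5.12 detected LSK clones (SD, n = 4 each), a 2.84-fold difference (exact permutation p = 0.0286, adjusted 0.0619).

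The GMP library gave a similar picture. In bone marrow, 70, 64, 68 and 80 GMP clones were detected in Ptprca mice and 23, 27 and 15 in NSG mice, and in spleen 45, 65, 44 and 49 against 29, 22, 16 and 31. The groups again did not overlap, and the mouse means of 60.6 ± 4.52 and 24.3 ± 6.46 (SD, n = 4 each) differed 2.53-fold (1.34 log2, exact permutation p = 0.0286, adjusted 0.0619). The size depended on the minimum, with 1.98 log2 at 10 and 0.59 log2 at 1000 reads per 1000000 (exact permutation p = 0.0286 each). The spleen of Ptprca mouse 18 held 42 detected GMP clones when only clones of the mixed pool were counted. The ratio of LSK to GMP detected clones was 1.12-fold higher in Ptprca (exact permutation p = 0.257), and its call depended on the count used. It passed the unadjusted threshold at a minimum of 1000 (0.57 log2) and for clones of the mixed pool alone (0.26 log2; exact permutation p = 0.0286 each), and it turned to -0.26 log2 at a minimum of 10 (exact permutation p = 0.229).

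Effective clones, the number of equally large clones with the same Shannon entropy, did not overlap between hosts in bone marrow and did so in spleen. This held for both libraries, and the contrast of tissues was not tested. In bone marrow the LSK library held 10.5, 16.7, 12.3 and 12.7 effective clones in Ptprca mice 17 to 20 and 6.71, 6.16 and 6.50 in NSG mice 21 to 23, without overlap (1.99-fold, exact permutation p = 0.0571, the smallest possible). In spleen the values were 5.89, 5.13, 5.10 and 6.03 against 6.199, 7.04, 3.96 and 5.85, and the groups overlapped (0.98-fold, exact permutation p = 0.914). Over mouse means the ratio was 1.41-fold (exact permutation p = 0.0286, adjusted 0.0619). That result used the Shannon index, and by the inverse Simpson index, which weights large clones more, the direction turned (-0.21 log2, exact permutation p = 0.143). Effective GMP clones were 7.97 ± 0.88 in Ptprca against 5.91 ± 1.31 in NSG mice (SD, n = 4 each, 1.39-fold, exact permutation p = 0.0571). In bone marrow the GMP groups did not overlap (1.39-fold, exact permutation p = 0.0571, the smallest possible). In spleen they overlapped (1.42-fold, exact permutation p = 0.114).

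**Figure D4:**
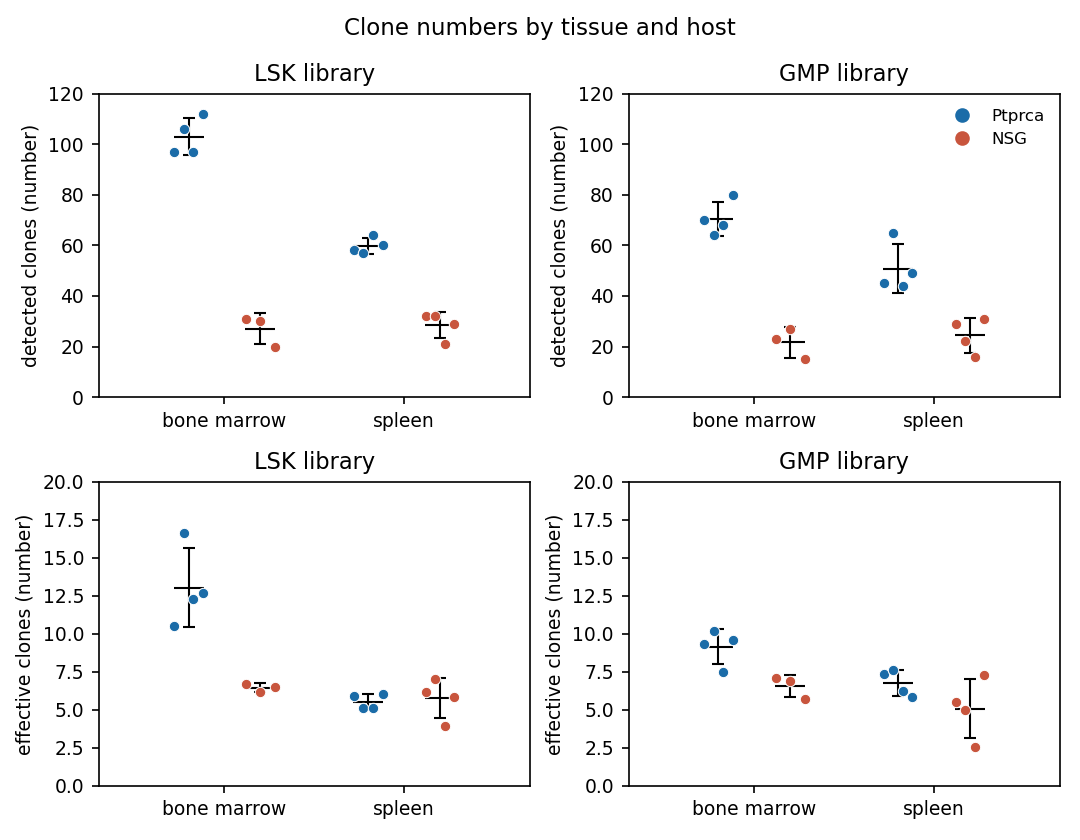
Detected clones (top, number at or over 100 reads per 1000000 of the library) and effective clones (bottom) in each bone marrow and spleen library, LSK on the left and GMP on the right, with bars for mean ± SD over mice (n = 4, but 3 for NSG bone marrow). Detected clones did not overlap between hosts in either tissue of either library. Effective clones of both libraries overlapped in spleen but not in bone marrow.

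The largest LSK clone also took more of its library in Ptprca mice. It held 48.5% ± 2.92 in Ptprca against 33.6% ± 4.83 in NSG mice (SD, n = 4 each, exact permutation p = 0.0286, adjusted 0.0619). Without the spleen library of mouse 18 the groups differed by 11.3 percentage points (exact permutation p = 0.0571), and in bone marrow alone they overlapped (39.2% ± 6.08, n = 4, and 31.4% ± 3.78, n = 3). The 5 largest LSK clones, ranked over both hosts, held less of the LSK library in Ptprca (74.5% ± 3.25) than in NSG mice (88.8% ± 1.53; SD, n = 4 each). So Ptprca libraries had a larger leading clone and also a larger remainder. The largest GMP clone held 33.8% ± 2.33 and 36.1% ± 7.13 (SD, n = 4 each, exact permutation p = 0.543).

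Nearly all clones detected in NSG mice were also detected in Ptprca mice. Here a clone counted for a mouse where any tissue library of that mouse reached the minimum. The NSG mice gave 7 libraries and the Ptprca mice 8, so NSG mice had fewer chances to show a clone. By this rule 200 LSK clones appeared in Ptprca and 59 in NSG mice. Of these, 52 were in both, which is 26.0% of the former and 88.1% of the latter. For GMP clones the counts were 167 and 54, with 47 in both (28.1% and 87.0%). Of the 167 GMP clones, 23 were not in the mixed pool. Detected in all 8 mice were 15 LSK clones, which held 88.2% ± 2.73 of LSK reads in Ptprca and 95.7% ± 0.75 in NSG mice, and 10 GMP clones, which held 88.9% ± 3.49 and 96.5% ± 2.10 (SD, n = 4 each).

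Some clones were detected in every Ptprca mouse and in no NSG mouse. There were 18 such LSK clones and 16 such GMP clones, and 0 of either library showed the reverse. Their bases differed, since 53 LSK and 40 GMP clones were detected in all 4 Ptprca mice but only 16 and 11 in all 4 NSG mice. The 18 LSK clones held 2.28% ± 0.27 of LSK reads in Ptprca mice and 0.00642% ± 0.00390 in NSG mice (SD, n = 4 each). They had made up 11.9% of the LSK library in the pool, with a median rank of 46.5. The 16 GMP clones held 1.53% ± 0.07 and 0.0142% ± 0.00529 (SD, n = 4 each), and 5.48% of the GMP library in the pool. These values describe clones chosen by the same counts and carry no test.

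Single clones were compared with limma on log2 of reads per 1000000 of the library plus a pseudocount of 10, after averaging the tissues of each mouse. Of 112 tested LSK clones, 60 were called at an adjusted p under 0.05 (53.6%), 57 of them higher in Ptprca (50.9%) and 3 higher in NSG mice (2.68%). The 3 were GFP_Barcode_7785, GFP_Barcode_29850 and GFP_Barcode_100907. Of 67 tested GMP clones, 28 were called (41.8%), 27 higher in Ptprca (40.3%) and 1 higher in NSG mice (1.49%). In bone marrow alone, 47 of 125 LSK clones were called (37.6%), 45 higher in Ptprca (36.0%) and 2 higher in NSG mice (1.60%). In spleen alone it was 20 of 55 (36.4%), 18 higher in Ptprca (32.7%) and 2 higher in NSG mice (3.64%). Of the GMP clones, 30 of 71 were called in bone marrow (42.3%), 29 higher in Ptprca (40.8%) and 1 in NSG mice (1.41%). In spleen it was 17 of 49 (34.7%), 15 higher in Ptprca (30.6%) and 2 in NSG mice (4.08%).

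Most called clones were small, and so were most tested clones. Of the 57 LSK clones called higher in Ptprca, 52 held under 1% of the library in Ptprca mice, with a median of 0.0688%. The same held for 101 of all 112 tested LSK clones, with a median of 0.0625%, so small size did not set the called clones apart. The 27 GMP clones called higher in Ptprca held 8.21% of the GMP library together in Ptprca and 0.342% in NSG mice. GFP_Barcode_3877, which ranked 6 in the pool's LSK library at 1.74%, held 0.579%, 0.143%, 0.351% and 0.130% in Ptprca mice 17 to 20. It was above 0 in 2 of 7 NSG libraries, at most at 0.000749% (limma adjusted p = 0.000142). GFP_Barcode_37432 and GFP_Barcode_414 were also above 0 in 2 of 7 NSG libraries, and held 0.0566% ± 0.0191 and 0.0475% ± 0.0262 in Ptprca mice (SD, n = 4 each). All of these LSK clones reached the minimum in the Ptprca mean alone, and their NSG means lay below the pseudocount. The pseudocount therefore enters their differences and p-values, which give no support for a direction.

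Among GMP clones, mCHERRY_2_Barcode_35245 held 0.154%, 0.300%, 0.273% and 0.287% in Ptprca mice 17 to 20 and was above 0 in 2 of 7 NSG libraries (limma adjusted p = 2.53e-05). mCHERRY_2_Barcode_10809 held 0.294% ± 0.107 in Ptprca mice (SD, n = 4) and was above 0 in 3 of 7 NSG libraries. mCHERRY_2_Barcode_408695 held 0.104% ± 0.0930 (SD, n = 4) and was above 0 in 2 of 7. These GMP clones, too, reached the minimum in the Ptprca mean alone and had NSG means below the pseudocount. Their p-values likewise give no support for a direction. The 1 clone called higher in NSG mice, mCHERRY_2_Barcode_896021, held 0.00479%, 0.132%, 0.0149% and 0.0222% in Ptprca and 1.03%, 0.257%, 0.0260% and 1.17% in NSG mice (limma adjusted p = 0.0302). Its groups overlapped through NSG mouse 23, and the call was lost without mouse 17, 19, 20, 21, 22 or 24 (limma adjusted p between 0.0525 and 0.09999). mCHERRY_2_Barcode_307110 was named after its values were seen, as the GMP clone with the widest gap among those outside the leaders. Its share of GMP reads was 3.81% in Ptprca against 0.0220% in NSG recipients (limma adjusted p = 0.000197).

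These calls are differences in library share, and the filter on low values enters them. Of the 112 tested LSK clones, 76 reached the minimum in the Ptprca mean alone, 2 in the NSG mean alone and 34 in both, and for the 67 GMP clones it was 30, 9 and 28. Of the called clones, 48 of 60 LSK and 21 of 28 GMP clones had reached it in the Ptprca mean alone, so their counts give no support for a direction. The median tested clone differed by 2.72 log2 (LSK, Ptprca higher) and 1.39 log2 (GMP), but by 1.68 and 1.30 at a minimum of 10 and by 0.59 and 0.22 with no minimum. On simulated data LSK calls also included more unchanged clones than the threshold allows. Centring each mouse on its median tested clone lowered every LSK clone by 4.48 log2 and every GMP clone by 3.62 log2. Each clone that was higher in Ptprca by less than this therefore had to turn. Under this scaling 16 LSK clones were called, 1 higher and 15 lower in Ptprca mice, and 24 GMP clones, 3 higher and 21 lower. The direction of GFP_Barcode_1859 is thus set by the scaling, at 1.23 log2 as a share of the library, -3.26 log2 after centring and -1.36 log2 by edgeR with TMM scaling. GFP_Barcode_7785 and GFP_Barcode_29850 stayed lower in Ptprca under every alternative tried, and so did GFP_Barcode_100907, though it missed the threshold in 13 of 22. By edgeR on the recovered reads with library totals, 55 LSK clones (52 higher, 3 lower in Ptprca) and 14 GMP clones (10 and 4) were called. With TMM scaling, 38 LSK clones (31 and 7) and 15 GMP clones (11 and 4) were called.

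**Figure D5:**
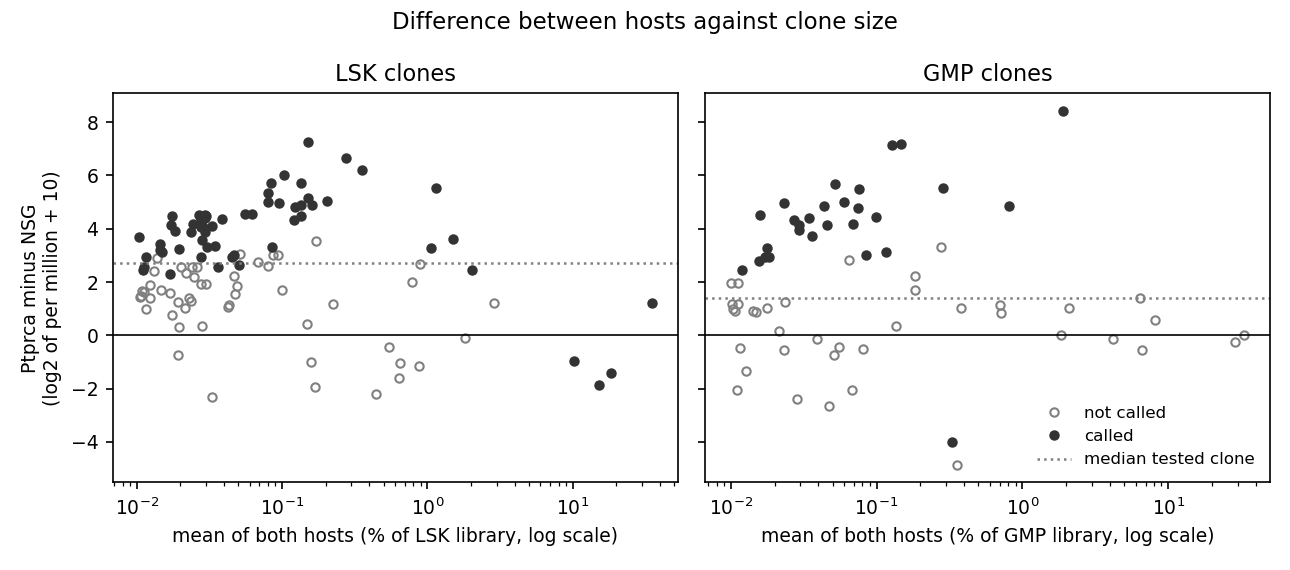
Difference between hosts in log2 of reads per 1000000 plus 10 (Ptprca minus NSG, vertical) against the mean share of the library over both hosts (horizontal, log scale), 1 point for each tested clone, filled where called by limma, with the median tested clone dotted. Small clones lay mostly above 0 in both libraries, and the called LSK clones below 0 were the 3 large ones. The filter selects for this, since 76 of 112 LSK and 30 of 67 GMP clones reached the minimum in the Ptprca mean alone. In the NSG mean alone 2 and 9 did.

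The direction of the called clones could be looked up in the separate mice that had received 1 origin alone. Of the 57 LSK clones called higher in mixed Ptprca mice, 57 were also higher in Ptprca than in NSG recipients of LSK cells, as were 103 of all 112 tested (median 3.04 against 2.24 log2). All 3 called higher in NSG mice were higher in NSG recipients of LSK cells, as were 8 of the 112. Of the 27 GMP clones called higher in Ptprca, 26 were higher in Ptprca recipients of GMP cells, as were 52 of all 67 tested. Of the tested clones, 76 LSK and 30 GMP clones had reached the minimum in the mixed Ptprca mean alone. Of the called clones, 48 LSK and 21 GMP clones had. These sets were thus picked in part for presence in Ptprca mice, so the counts higher in Ptprca give no support for a direction. The 9 LSK and 6 GMP clones called higher in Ptprca that reached the minimum in both hosts were not counted separately. GFP_Barcode_1859 held 38.0% ± 3.69 (SD, n = 3) of LSK reads in Ptprca and 19.3% ± 4.63 (SD, n = 4) in NSG recipients of LSK cells alone.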

How the data were processed

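Barcodes were counted in genomic DNA, per the labels, although the labels' extraction protocol describes a droplet preparation. The deposited values are CPM, which the authors had filtered, collapsed over PCR duplicates and scaled so that each column sums to 1000000. Each host had a deposited table of its own. Bowtie 1.2.2 and R 3.6 appear in the submitters' processing notes, and settings are not given in the sources used here. All values over 0 were whole multiples of 1 step per column (100% within 0.01), taken as 1 read.

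The LSK share was LSK reads over the sum of LSK and GMP reads, and its log2 odds were tested. The mouse was the replicate, with tissues averaged, and NSG mouse 24 entered by its spleen alone. Host differences used exact two-sided permutation tests (numpy 2.4.6, scipy 1.17.1), adjusted by Benjamini-Hochberg over 13 tests on mouse means. Tests in 1 tissue were adjusted over 12 tests of that tissue. Their permutation p-values are given unadjusted unless said, and the lowest adjusted value was 0.114 in either tissue. Since nothing says that mice received separately made pools, p-values measure the spread between mice of 1 pool. Clone by clone, limma 3.58.1 (lmFit, eBayes with trend, R 4.3.3) was run for clones at or over 100 reads per 1000000 of their library in the mean of the hosts, each library adjusted separately, and with edgeR 4.0.16 as an alternative.

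Named clones were the 5 largest per library and host, and up to 3 called clones per direction by smallest adjusted p. Members, lists and tests were chosen with earlier results of these data known. The tests were checked on simulated data. Where large clones were simulated to change, limma and edgeR also called unchanged clones whose share had moved as the rest of the library changed, so a call means a difference in share and not in cell number. With small clones changed, the share of wrong LSK calls, pooled over runs, was still above the nominal threshold. Alternatives were other minima and pseudocounts, each tissue alone, CPM as deposited, centring, other rankings, a replicate block and each mouse left out.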

Additional observations from a re-analysis of the deposited data

Results flagged for a closer look

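Of 81 groups of 4 mice examined for a mouse far from the others, 6 held one, and chance flags about 1 in 20. Ptprca mouse 19 had an LSK share of 36.84%, below the other 3. NSG mouse 23 held 38.4% of LSK reads in GFP_Barcode_29850 and 44.2% of GMP reads in mCHERRY_2_Barcode_283858, above the other NSG mice. NSG mouse 24, with spleen alone, held 14.7% of GMP reads in mCHERRY_2_Barcode_4128. NSG mouse 22 held 0.000152% of LSK reads in GFP_Barcode_414, and Ptprca mouse 18 held 0.132% of GMP reads in mCHERRY_2_Barcode_896021.

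Barcodes outside both libraries were also seen. BFP barcodes, which no label assigns to an origin, reached 0.0170% of reads in the spleen of NSG mouse 21, against 0.00153% in the pool. Barcodes that the mixed pool did not hold reached 1.07% of reads in the spleen of Ptprca mouse 18.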

How the results depend on the processing

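A result kept its call here where its unadjusted exact permutation p stayed under 0.05 (limma for clones, adjusted p). Differences are Ptprca minus NSG in log2 unless said. Leaving out a mouse leaves 4 against 3, where p cannot go below 0.0571, so all 6 results at 0.0286 missed the threshold in every such split, and this says nothing about stability. Their ranges were -1.27 to -0.81 (LSK share), -2.02 to -0.98 (5 largest GMP clones left out), 1.36 to 1.57 (detected LSK), 1.14 to 1.47 (detected GMP), 0.42 to 0.55 (effective LSK) and 13.6 to 17.2 percentage points (largest LSK clone). Other ranges were 0.01 to 0.37 (5 largest LSK clones left out), -0.73 to 0.19 (5 of each library), -0.43 to 0.46 (bone marrow minus spleen), -0.10 to 0.14 (effective LSK over GMP), -5.30 to 0.35 points (largest GMP clone), and 55 to 59 LSK and 21 to 30 GMP calls.

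In bone marrow alone the values were -1.24 (LSK share), -0.037 (5 largest LSK clones left out), -0.98 (5 largest GMP), 0.23 (5 of each), 1.96 and 1.74 (detected LSK and GMP), 0.995 (effective LSK) and 7.83 points (largest LSK clone). In spleen alone they were -1.02 (LSK share), -2.33 (5 largest GMP), -0.030 (effective LSK) and -0.54 (effective LSK over GMP), with 20 LSK and 17 GMP calls. With a tissue term and the mouse as replicate block, effective LSK over GMP changed sign (-0.048) and stayed uncalled. The LSK share was -1.12, and no permutation test changed its call. Under the same setting limma called 67 LSK clones (2 lost, 9 gained) and 27 GMP clones (2 lost, 1 gained). No paired analysis between hosts was possible because the hosts share no mouse numbers. Without the spleen of mouse 18 (chosen after seeing the data) the largest LSK clone differed by 11.3 points (exact permutation p = 0.0571).

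With 1, 2, 3, 10 or 20 LSK clones left out the gap was -1.74, -1.43, -0.77, -0.35 and 1.47, and -0.25 or -0.82 with clones ranked in LSK recipients or in the pool. By the inverse Simpson index effective LSK clones gave -0.21 and their ratio over GMP -0.42. Detected LSK over GMP gave -0.26, 0.57 and -0.18 at a minimum of 10, 1000 or none, -0.075 in CPM as deposited and 0.26 for pool clones alone, of which 0.57 and 0.26 gained a call (exact permutation p = 0.0286 each). Detected GMP clones gave 1.98 and 0.59 at minima of 10 and 1000. LSK calls were 20 at a minimum of 1000, 39 in CPM as deposited, 16 after centring and 38 by edgeR with TMM. GMP calls were 45 and 7 at minima of 10 and 1000, 14 by edgeR with library totals and 15 with TMM. The cause was not tested.

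Centring lowers every LSK clone by 4.48 and every GMP clone by 3.62, which by construction turned GFP_Barcode_1859 (-3.26), GFP_Barcode_2255 (-2.05), GFP_Barcode_8037 (-3.29), GFP_Barcode_37432 (-0.14), GFP_Barcode_414 (-0.61), mCHERRY_2_Barcode_626161 (-3.61), mCHERRY_2_Barcode_1204592 (-3.05) and mCHERRY_2_Barcode_4128 (-2.23). GFP_Barcode_1859 also turned by TMM (-1.36), and GFP_Barcode_8037 in spleen (-0.71), by edgeR with totals (-0.34), with TMM (-2.48) and without mouse 23 (-0.16, with -0.16 to 2.34 over all mice left out). mCHERRY_2_Barcode_626161 turned in spleen (-0.11), under the replicate block (-0.014), by edgeR with totals (-0.00034) and without single mice (-0.077 to 0.078). In CPM as deposited mCHERRY_2_Barcode_283858 (0.31) and mCHERRY_2_Barcode_88201 (0.0092, and 0.19 in spleen) turned.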
